A study of Homo sapiens with 24 samples.

Results

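The genes described here are 10 of the 58735 in the expression table, picked by name as the core of the NRF2 and glutathione defence. They are the transcription factor gene NFE2L2 and its inhibitor KEAP1, the glutathione synthesis genes GCLM and GCLC, the thiol reductase genes GSR, TXNRD1 and SRXN1, the NADPH-producing enzyme gene ME1, the quinone reductase gene NQO1 and the haem oxygenase gene HMOX1. The study used 2 established human leukaemia lines of the B cell precursor type, Nalm6 and Sem, of which Sem is known for a KMT2A-AFF1 fusion, and sequenced their RNA. Each line was studied without treatment, after 24 h with 10 µM ibrutinib, after 24 h with asparaginase, and after 24 h with both drugs (called the combination here), in 3 libraries a group and 24 in all. Ibrutinib is a covalent inhibitor of Bruton tyrosine kinase, and asparaginase is an enzyme drug that breaks down asparagine outside the cell. The asparaginase dose stands as 1 IU/ml in the study design and as 0.5 IU/ml in the treatment protocol. Nothing in the labels says whether the 3 libraries of a group came from separate cultures, so the p-values rest on a spread between libraries that may be only technical.

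NRF2, the protein of NFE2L2, is kept scarce by KEAP1, which hands it to a CUL3 ubiquitin ligase for degradation. Oxidants and electrophiles modify cysteines of KEAP1, and NRF2 then accumulates, pairs with a small MAF protein and binds antioxidant response elements near its target genes. The control acts largely on the protein, so the mRNA level of NFE2L2 is not a measure of NRF2 activity. Glutathione, the product of the GCLC and GCLM enzyme, is the main small thiol of the cell, and its synthesis needs cysteine, which cells take up largely as cystine.

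Promoter windows from RefSeq (GRCh38.p14, 250 bases before to 50 after a transcript start) were found for 8 of the 10 genes, not for HMOX1 and GSR, as 11 windows in all. They were searched on both strands for TGACNNNGC, the core letters of the antioxidant response element, whose reverse complement is GCNNNGTCA. The letters occurred in 5 windows, which belong to GCLM, ME1, TXNRD1 and KEAP1, and in 4687 of all 35116 windows in the table (13.3%). The narrower TGACTNAGC, each match of which is also a match of the wider letters, was in windows of GCLM, ME1 and KEAP1 and in 394 of all windows (1.12%). No match lay in the windows of NQO1, GCLC, NFE2L2 and SRXN1 or in a further window of KEAP1 (chr19:10503307-10503606). This says only that these letters are not in these windows. One match with up to 30 bases on each side is printed for each of the 4 genes, 5′ to 3′ in the direction of the gene and ending before the transcript start. Capitals mark every match of the wider letters that lies whole in the stretch, on either strand. All 4 stretches are upstream of a RefSeq transcript start, and no binding was measured at them. The match begins 34 bases upstream of the start for GCLM, 137 for ME1, 102 for TXNRD1 and 31 for KEAP1. The starts used for TXNRD1 and KEAP1 are inner starts of these genes. The KEAP1 stretch holds a second match, of the wider letters alone, that begins 54 bases upstream.
GCLM, chr1:93909431-93909494, minus strand: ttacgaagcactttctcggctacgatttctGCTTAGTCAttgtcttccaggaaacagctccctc
ME1, chr6:83431150-83431218, minus strand: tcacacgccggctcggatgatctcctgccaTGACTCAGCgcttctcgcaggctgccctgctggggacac
TXNRD1, chr12:104286900-104286968, plus strand: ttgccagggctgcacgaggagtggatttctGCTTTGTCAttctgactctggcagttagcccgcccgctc
KEAP1, chr19:10502772-10502832, minus strand: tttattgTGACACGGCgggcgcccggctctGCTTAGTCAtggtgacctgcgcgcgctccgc

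Levels are given in FPKM, fragments per kilobase of gene scaled to the size of the library. Values of 1 or more had lost their decimal point in the deposited table and were restored from the whole reads behind them, which came to between 15 M and 18.1 M reads in genes per library. Each library is scaled by an effective size, which was 0.919 to 1.093 times its total of reads in genes. This factor was 0.982 to 0.995 in untreated Nalm6 and 1.072 to 1.092 with asparaginase there. A lower FPKM is therefore close to, but not exactly, a smaller share of the RNA. Fewer cells of a type and less RNA per cell cannot be told apart. Changes are differences of log2(FPKM + 1), which understate the change of low genes, tested with limma over all genes that reached 1 FPKM in at least 3 libraries of the fit. A gene is said to have risen or fallen where its p, adjusted over all genes tested, was under 0.05. Of 10 B cell precursor markers, all 10 reached 1 FPKM in Nalm6 and 8 did in Sem, where DNTT and BLNK stayed between 0.0164 and 0.371 FPKM. CD24 (1.27 to 5.88 FPKM), CD79B (3.87 to 12.1) and VPREB1 (36.9 to 79.3) were lower in Sem than in any Nalm6 library. CD3D and CD3E, which define T cells, were at 0 in all 24 libraries. Of 8 T and NK cell markers, only TRAC and NKG7 reached 1 FPKM. In Sem, TRAC lay between 70.5 and 99.4 FPKM and NKG7 between 10.5 and 24.6. In Nalm6 they lay at 0.39 to 9.53 and 0.972 to 3.24. Of 9 myeloid markers, only LYZ (3.92 to 14.2 in Nalm6, up to 1.5 in Sem) and CSF1R (1.5 to 4.56 in Sem) did so. Within their groups, the libraries Nalm6 untreated 2, asparaginase 1 and combination 1 and Sem untreated 2 and ibrutinib 2 stood apart. Their reads differed from those of the other libraries of their group by a chi-square per gene of 4.23 to 15.8, and the remaining pairs of those groups by 2.14 to 3.78. In the other groups pairs reached 4.47 (Nalm6 ibrutinib 1 and 3), above the 4.23 and 4.25 of Sem ibrutinib 2, so the low end is no clear gap. In Nalm6 the 3 ibrutinib libraries had slopes of -0.072 to -0.033 log2 units per 10 points of GC content, against -0.064 to 0.050 in the untreated ones. The part of these differences in the results below was not tested except by leaving libraries out and by a GC and length correction.

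NQO1 rose in both lines with ibrutinib and with the combination. With ibrutinib, 1 of the 7 tested members rose in Nalm6 and 0 fell, where 12.4% of the 13237 genes tested changed in either direction. In Sem, 4 of 8 rose with ibrutinib (NQO1, GCLM, GCLC and TXNRD1) and 2 fell (GSR and NFE2L2), where 41.5% of 13417 genes changed. With asparaginase, 0 of 7 members rose and 6 fell in Nalm6, where 56.3% of genes changed and 28.1% fell. In Sem, 3 of 8 rose and 1 fell with asparaginase, where 26.4% changed. The combination raised NQO1 and lowered 5 of 7 in Nalm6, where 63.7% changed, and raised 3 and lowered 2 of 8 in Sem, where 52.9% changed. The 2 were GSR and ME1, and ME1 passed the filter there mainly through its untreated libraries. Scaling every library to the same sum of FPKM (TPM) shifted the median change of all genes by 0.15 with asparaginase and 0.17 with the combination in Nalm6 (0.13 and 0.14 with voom) and by 0.10 for asparaginase added to ibrutinib there. It moved the balance of calls without reversing a called change of these 10 genes. With asparaginase in Nalm6, 28.2% of genes rose and 28.1% fell as deposited, and 38.4% and 19.3% after that scaling. The shares for ibrutinib in Nalm6 were 4.99% and 7.46% as deposited, 7.92% and 3.32% with TPM and 3.57% and 2.89% with quantile normalization. In Nalm6 the combination raised 32.4% and lowered 31.3%, and 42.2% and 23.1% with TPM. The Sem shares were 20.3% and 21.3% with ibrutinib, 11.4% and 15.1% with asparaginase and 26.6% and 26.3% with the combination, and with TPM 29.2% and 15%, 20.2% and 8.53%, and 34.3% and 20.2%.

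**Figure D1:**
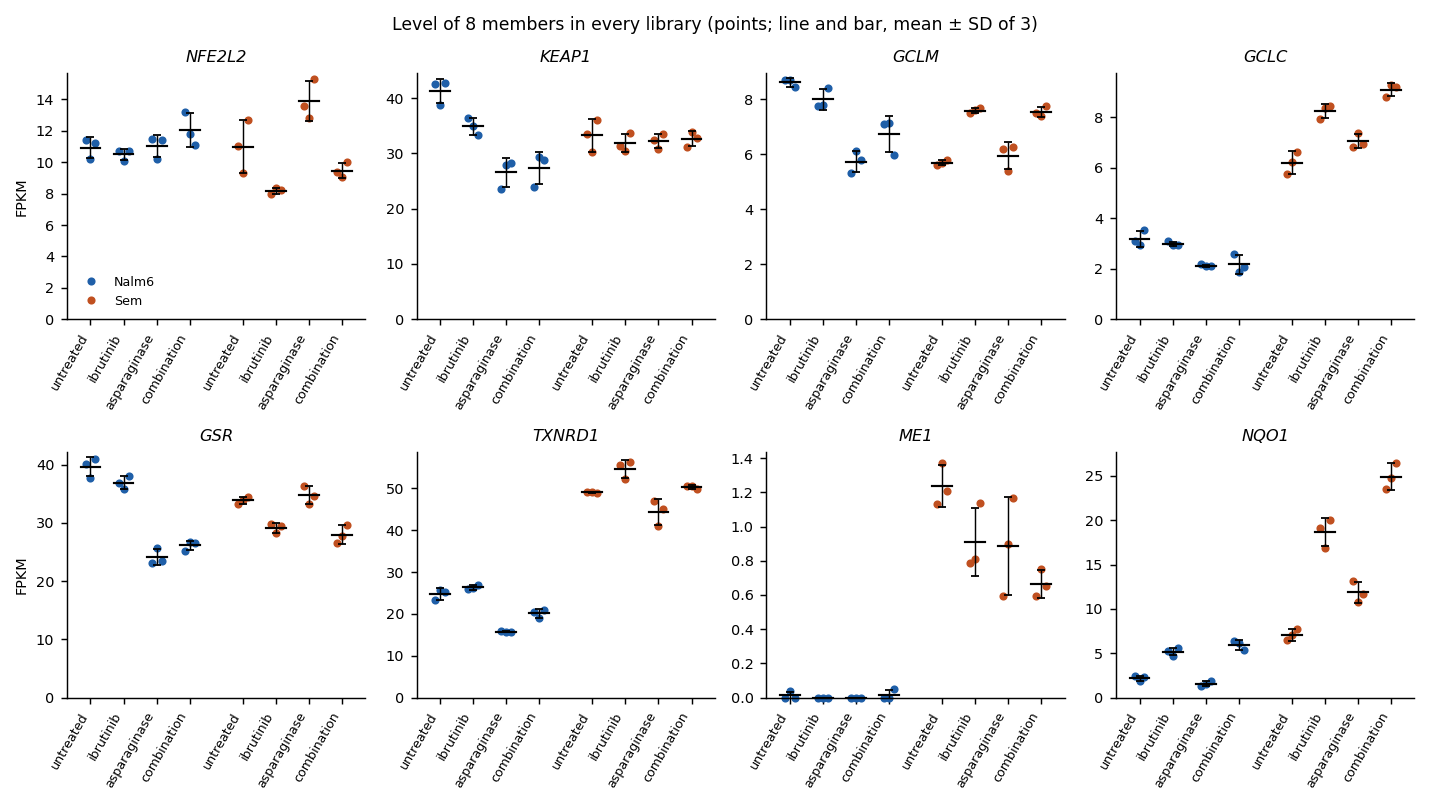
FPKM of 8 members (y axis, from 0, a separate scale for each gene) in the 4 treatments of Nalm6 (blue) and Sem (orange), with 1 point a library and the mean ± SD of 3. NQO1 is higher in every ibrutinib and combination library than in any untreated library of its line, and ME1 is near 0 in Nalm6.

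NFE2L2 (ENSG00000116044, GRCh38 chr2:177227595-177392697, minus strand) did not pass the threshold against untreated in Nalm6 as deposited, and moved in opposite directions with the 2 drugs in Sem. In Nalm6 it was at 11.4, 10.2 and 11.2 FPKM untreated, 10.7, 10.1 and 10.7 with ibrutinib, 11.5, 10.2 and 11.4 with asparaginase and 13.2, 11.8 and 11.1 with the combination. These groups overlap with the untreated libraries, and none of the 3 changes passed (log2 changes -0.06, 0.01 and 0.12). The combination value passed with TPM (0.30, adjusted p = 0.0058) and with voom on the reads (0.27, 0.005). In Sem it was at 11, 9.28 and 12.7 FPKM untreated, 8, 8.38 and 8.2 with ibrutinib, 13.6, 12.8 and 15.3 with asparaginase and 9.37, 9.03 and 10 with the combination. All 3 ibrutinib libraries of Sem lie below, and all 3 asparaginase libraries above, the untreated range. The fall with ibrutinib was -0.37 ± 0.092 (SE, adjusted p = 0.0074). The rise with asparaginase was 0.32 ± 0.092 (adjusted p = 0.026), and the combination was -0.50 from asparaginase alone (adjusted p = 0.0014) and -0.19 from untreated (adjusted p = 0.11, not passed). The asparaginase rise lost its call with no filter (0.32, adjusted p = 0.068), and without untreated 1 (0.32, 0.059), untreated 2 (0.21, 0.071), asparaginase 1 (0.33, 0.056) or asparaginase 3 (0.25, 0.094). Without untreated 2, the lowest of its group, the fall with the combination passed (-0.29, adjusted p = 0.01), and it passed with the replicate number as a block (-0.19, adjusted p = 0.047). Other genes overlap 20.9% of the exonic bases of NFE2L2, on both strands, and nothing in the labels says that reads were counted by strand.

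KEAP1 (ENSG00000079999, chr19:10486120-10503741, minus strand), the cysteine-bearing inhibitor of NRF2, fell in Nalm6 with asparaginase and did not pass in any treatment of Sem. Its Nalm6 levels were 42.5, 38.8 and 42.7 FPKM untreated, 36.4, 34.9 and 33.4 with ibrutinib, 23.6, 28 and 28.3 with asparaginase and 24, 29.3 and 28.8 with the combination. The asparaginase and combination libraries all lie below the ibrutinib libraries, and those below the untreated ones. Against untreated the changes were -0.62 ± 0.086 with asparaginase (adjusted p = 0.00011) and -0.58 ± 0.086 with the combination (adjusted p = 0.00013). With ibrutinib the change was -0.24 (adjusted p = 0.098), and it passed without the libraries that stood apart (-0.28, adjusted p = 0.0021) after the GC and length correction (-0.17, 0.0089) and with both lines in 1 fit (-0.24, 0.044). In Sem the 12 libraries lay between 30.2 and 36 FPKM, with overlap of every treated group with the untreated one and changes of -0.06, -0.04 and -0.03. The ratio of NFE2L2 to KEAP1 in FPKM was 0.265 ± 0.00372 (SD, n = 3) in untreated Nalm6, 0.301 ± 0.0178 with ibrutinib, 0.419 ± 0.0612 with asparaginase and 0.446 ± 0.0886 with the combination. In Sem it was 0.329 ± 0.0221 untreated, 0.258 ± 0.016 with ibrutinib, 0.43 ± 0.0228 with asparaginase and 0.291 ± 0.0216 with the combination.

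GCLM and GCLC encode the modifier and the catalytic subunit of glutamate-cysteine ligase, which makes the first bond of glutathione. Both rose in Sem with ibrutinib and both fell in Nalm6 with asparaginase. GCLM (ENSG00000023909, chr1:93885205-93909456, minus strand) was at 5.6, 5.69 and 5.77 FPKM in untreated Sem, 7.5, 7.59 and 7.66 with ibrutinib, 6.2, 5.37 and 6.25 with asparaginase and 7.48, 7.39 and 7.74 with the combination. The ibrutinib and combination libraries lie above all others of Sem, and those with asparaginase alone overlap the untreated range. GCLM rose by 0.36 ± 0.050 with ibrutinib (adjusted p = 0.00021) and by 0.35 with the combination (adjusted p = 0.00014), and with asparaginase alone the change was 0.05 (adjusted p = 0.5). In Nalm6 it was at 8.69, 8.71 and 8.43 FPKM untreated, 7.75, 7.8 and 8.41 with ibrutinib, 5.31, 6.1 and 5.78 with asparaginase and 7.09, 7.12 and 5.96 with the combination. There the untreated libraries are the highest. The changes were -0.10 with ibrutinib (adjusted p = 0.38), -0.52 ± 0.069 with asparaginase (adjusted p = 8.1e-05) and -0.32 with the combination (adjusted p = 0.0017). The difference of -0.22 between the combination and ibrutinib in Nalm6 (adjusted p = 0.017) lost its call with TPM (-0.15, 0.1), with voom on the reads (-0.18, 0.058), and without ibrutinib 3 (-0.19, 0.066) or combination 3 (-0.15, 0.065). The combination was 0.20 above asparaginase alone (adjusted p = 0.065), a value that passed with TPM (0.24, 0.042), with voom (0.24, 0.044), with both lines in 1 fit (0.20, 0.019) and without combination 3 (0.27, 0.014).

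GCLC (ENSG00000001084, chr6:53497341-53616970, minus strand) was at 5.74, 6.24 and 6.62 FPKM in untreated Sem, 7.93, 8.37 and 8.43 with ibrutinib, 6.82, 7.36 and 6.95 with asparaginase and 8.79, 9.28 and 9.21 with the combination. The 4 groups do not overlap, with the combination highest and untreated lowest. It rose by 0.36 ± 0.051 with ibrutinib (adjusted p = 0.00023) and by 0.49 with the combination (adjusted p = 1.4e-05). A rise of 0.16 with asparaginase (adjusted p = 0.038) lost its call with no filter (0.16, 0.068), with quantile normalization (0.13, 0.077), with both lines in 1 fit (0.16, 0.11), and without untreated 1 (0.11, 0.13), untreated 2 (0.17, 0.063), asparaginase 1 (0.18, 0.053), asparaginase 2 (0.13, 0.13) or asparaginase 3 (0.17, 0.068). In Nalm6 GCLC was lower, at 3.08, 2.94 and 3.55 FPKM untreated, 3.08, 2.94 and 2.95 with ibrutinib, 2.17, 2.1 and 2.1 with asparaginase and 2.6, 1.85 and 2.05 with the combination. Its changes were -0.07 with ibrutinib (adjusted p = 0.66), -0.42 ± 0.088 with asparaginase (adjusted p = 0.0019) and -0.41 with the combination (adjusted p = 0.0018). The subunits stood in different proportions in the lines, in every treatment. The FPKM ratio of GCLC to GCLM was between 0.323 and 0.375 as a group mean in Nalm6 and between 1.09 and 1.21 in Sem. The untreated values were 0.371 ± 0.0444 (SD, n = 3) and 1.09 ± 0.0621, with no overlap of libraries.

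GSR and TXNRD1 encode the reductases that return oxidized glutathione and oxidized thioredoxin to their thiol forms at the cost of NADPH. In Nalm6 both fell with asparaginase, and in Sem they moved apart with ibrutinib, GSR down and TXNRD1 up. GSR (ENSG00000104687, chr8:30678061-30727999, minus strand) was at 40.2, 37.8 and 41 FPKM in untreated Nalm6, 36.9, 35.8 and 38 with ibrutinib, 23.1, 25.7 and 23.5 with asparaginase and 25.2, 26.7 and 26.5 with the combination. Every library with asparaginase, alone or combined, is below every library without it. The fall was -0.69 ± 0.052 with asparaginase (adjusted p = 1e-06) and -0.58 with the combination (adjusted p = 2.2e-06), and ibrutinib alone gave -0.10 (adjusted p = 0.23). In Sem GSR was at 33.3, 34 and 34.5 FPKM untreated, 29.8, 28.2 and 29.4 with ibrutinib, 36.4, 33.3 and 34.7 with asparaginase and 26.5, 27.7 and 29.7 with the combination. The libraries with ibrutinib, alone or combined, are the lower ones here. The changes were -0.21 with ibrutinib (adjusted p = 0.0034), 0.04 with asparaginase (adjusted p = 0.62) and -0.27 with the combination (adjusted p = 0.00046). Under quantile normalization the ibrutinib and combination values in Sem were -0.08 (adjusted p = 0.19) and -0.10 (0.08) and no longer passed.

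TXNRD1 (ENSG00000198431, chr12:104215779-104350305, plus strand) had the highest FPKM of the set in Sem, at 49.2, 49.1 and 49 untreated, 55.5, 52.3 and 56.2 with ibrutinib, 46.9, 41 and 45.1 with asparaginase and 50.5, 50.6 and 49.8 with the combination. The ibrutinib libraries are above and the asparaginase libraries below the narrow untreated range. The changes of 0.15 with ibrutinib (adjusted p = 0.02) and -0.15 with asparaginase (adjusted p = 0.037) were small, and 0.03 with the combination did not pass (adjusted p = 0.56). The ibrutinib rise did not pass after the GC and length correction (0.11, adjusted p = 0.075), nor without untreated 3 (0.15, adjusted p = 0.051), ibrutinib 1 (0.14, 0.063) or ibrutinib 3 (0.13, 0.074). The asparaginase value was -0.06 with TPM (adjusted p = 0.36), -0.03 with quantile normalization (0.69) and -0.11 with voom on the reads (0.065), none of which passed. That call was also lost with no filter (-0.15, adjusted p = 0.07), and without untreated 1 (-0.14, 0.083), untreated 2 (-0.15, 0.068), untreated 3 (-0.15, 0.081), asparaginase 2 (-0.09, 0.11) or asparaginase 3 (-0.16, 0.056). In Nalm6 TXNRD1 was at 23.2, 25.7 and 25.3 FPKM untreated, 25.9, 26.1 and 27 with ibrutinib, 15.9, 15.6 and 15.7 with asparaginase and 20.5, 18.9 and 20.9 with the combination. The combination libraries lie between those with asparaginase alone and the untreated ones. TXNRD1 fell by 0.62 ± 0.050 on the log2 scale with asparaginase (adjusted p = 1.9e-06), and the combination was 0.33 above asparaginase alone (adjusted p = 0.00095) and -0.29 from untreated (adjusted p = 0.00042). The last value was -0.07 (adjusted p = 0.28) under quantile normalization. In Sem the FPKM ratio of TXNRD1 to GSR was 1.45 ± 0.028 untreated, 1.88 ± 0.0339 with ibrutinib, 1.27 ± 0.0358 with asparaginase and 1.8 ± 0.116 with the combination (SD, n = 3 each).

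SRXN1 (ENSG00000271303, chr20:646615-653370, minus strand), whose protein repairs overoxidized peroxiredoxins, had 1 read in all 24 libraries, in Sem with asparaginase. A count of 0 allows up to 3 reads, which is 0.0583 to 0.0766 FPKM depending on the library and covers counting error only. Another gene model on the same strand, AL121758.1, shares 85% of its exonic bases and was at 0 in all 24 libraries. How reads in bases shared by genes were counted is not given in the sources used here, so the level of SRXN1 is uncertain.

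ME1 (ENSG00000065833, chr6:83210389-83431071, minus strand) encodes cytosolic malic enzyme, which makes NADPH from malate. It separated the lines: the 12 Nalm6 libraries held 0 to 3 reads each, and the 12 Sem libraries 29 to 68. In Sem it was at 1.13, 1.37 and 1.21 FPKM untreated, 0.785, 0.809 and 1.14 with ibrutinib, 0.592, 0.898 and 1.17 with asparaginase and 0.591, 0.749 and 0.653 with the combination. Only the combination libraries lie entirely below the untreated ones, with a change of -0.43 ± 0.13 (adjusted p = 0.017). It missed the threshold without untreated 2 (-0.38, adjusted p = 0.057) or combination 1 (-0.39, 0.053), and ibrutinib (-0.23) and asparaginase (-0.25) alone did not pass. ME1 passed the filter in Sem through the 3 untreated libraries, its highest group, and 2 others above 1 FPKM. The adjusted p of 0.017 is therefore not independent of the filter. With no filter the limma change was -0.43 ± 0.122 (adjusted p = 0.029). With the filter ME1 was not tested in Nalm6. Untreated Sem held 200 ME1 reads against 2 in untreated Nalm6, a ratio, relative to the reads of each library, of 92.7 with a 95% counting interval of 25.3 to 771 (exact Clopper-Pearson on the split of the reads).

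NQO1 (ENSG00000181019, chr16:69706996-69726951, minus strand), which reduces quinones by a pair of electrons and is a standard readout of NRF2 activity, had the largest changes in log2(FPKM + 1) among the tested members. In Nalm6 it was at 2.43, 1.86 and 2.26 FPKM untreated, 5.22, 4.72 and 5.55 with ibrutinib, 1.35, 1.47 and 1.87 with asparaginase and 6.34, 6.17 and 5.32 with the combination. Every library with ibrutinib, alone or combined, is above every library without it. It rose by 0.96 ± 0.099 with ibrutinib (SE, adjusted p = 0.00029), a ratio of mean FPKM of 2.37, and by 1.13 with the combination (adjusted p = 2.1e-06), a ratio of 2.72. Asparaginase alone gave -0.31 (adjusted p = 0.019) with libraries that overlap the untreated ones. It missed the threshold without untreated 1 (-0.26, adjusted p = 0.073), untreated 3 (-0.29, 0.057), asparaginase 1 (-0.25, 0.072) or asparaginase 2 (-0.29, 0.059), and with TPM (-0.29, 0.073) or voom on the reads (-0.35, 0.097). Adding ibrutinib to asparaginase raised NQO1 by 1.44 (adjusted p = 9.3e-06), and adding asparaginase to ibrutinib gave 0.17 (adjusted p = 0.16), and 0.27 with voom on the reads (0.039).

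In Sem NQO1 was at 6.45, 7.04 and 7.77 FPKM untreated, 13.1, 10.8 and 11.7 with asparaginase, 19.1, 16.9 and 20 with ibrutinib and 23.5, 24.8 and 26.5 with the combination. The 4 groups do not overlap and stand in that order. The rise was 1.28 ± 0.083 with ibrutinib (adjusted p = 1.2e-06), 0.67 with asparaginase (adjusted p = 0.00019) and 1.68 with the combination (adjusted p = 6.4e-08), and the ratios of mean FPKM were 2.64, 1.68 and 3.51. The combination was 1.01 above asparaginase alone (adjusted p = 4.9e-06) and 0.40 above ibrutinib alone (adjusted p = 0.01), and the last value missed without the libraries that stood apart (0.34, adjusted p = 0.052). A gene on the opposite strand, AC092115.2, overlaps 17.7% of the exonic bases of NQO1, and without strand the reads of the pair cannot be told apart. The order of the 8 group means was Sem combination, ibrutinib, asparaginase and untreated, then Nalm6 combination, ibrutinib, untreated and asparaginase. Within it, only the Nalm6 combination and ibrutinib groups, and the Nalm6 untreated and asparaginase groups, overlap with their neighbour.

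**Figure D2:**
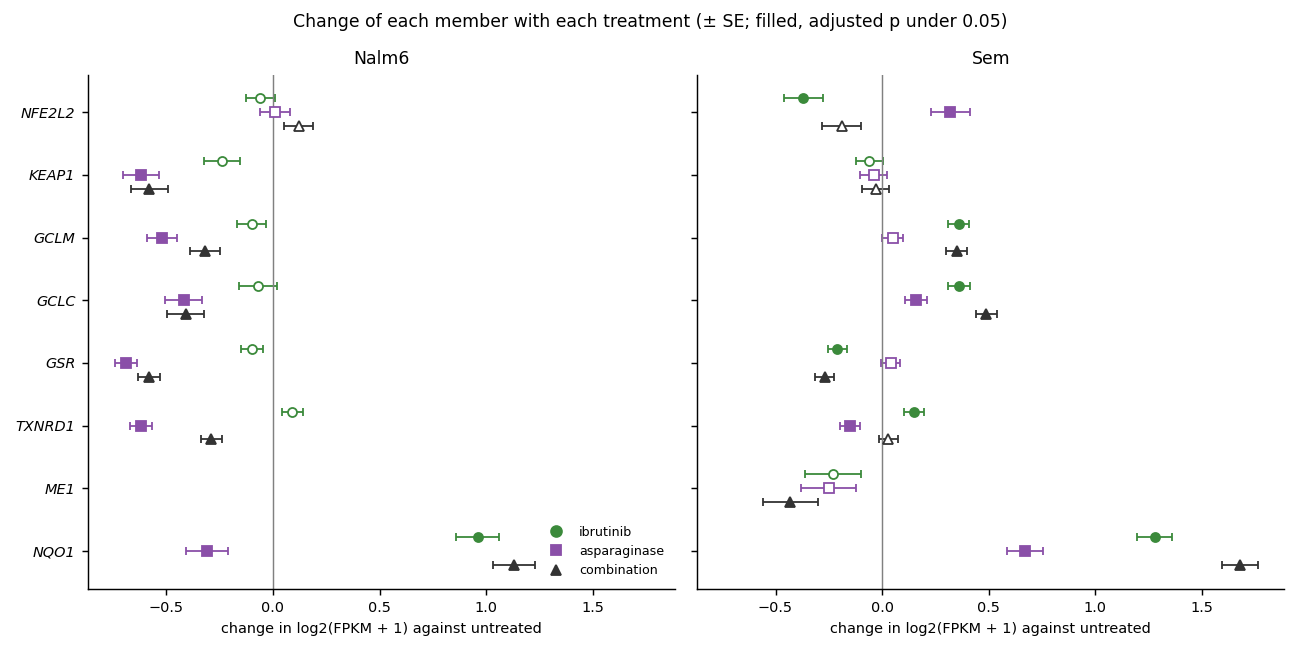
Change in log2(FPKM + 1) against untreated (x axis) ± SE for 8 members in Nalm6 (left; ME1 was not tested) and Sem (right), by treatment; filled symbols have an adjusted p under 0.05. NQO1 stands furthest to the right in both lines, at 0.96 and 1.13 in Nalm6 and 1.28 and 1.68 in Sem with ibrutinib and the combination.

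HMOX1 (ENSG00000100292, chr22:35380361-35394214, plus strand), which opens the haem ring and whose gene is also held down by BACH1, stayed under 1 FPKM in all 24 libraries and was not among the tested genes. In Sem it had 1, 2 and 3 reads untreated, 6, 11 and 8 with ibrutinib, 1, 1 and 0 with asparaginase and 16, 19 and 14 with the combination. The libraries with ibrutinib lie above those without it, and the combination libraries above those with ibrutinib alone. Relative to library reads, the combination to untreated ratio was 8.32 (49 against 6 reads, 95% counting interval 3.56 to 23.8) and the ibrutinib to untreated ratio 4.29 (1.72 to 12.8). The combination to ibrutinib ratio was 1.94 (1.18 to 3.28). A two-sided exact permutation test on the 3 against 3 libraries gave p = 0.1 for each, the smallest that 3 against 3 can give. Asparaginase alone held 2 reads against 6 untreated, a ratio of 0.346 (0.0342 to 1.94). In a fit with voom over genes with at least 10 reads, chosen after the data were seen, HMOX1 rose by 2.86 with the combination (adjusted p = 0.00023) and by 1.92 with ibrutinib (adjusted p = 0.021). The combination was 0.94 above ibrutinib in that fit, which did not pass (adjusted p = 0.2), and 0.22 above it on log2(FPKM + 1) with no filter (adjusted p = 0.015). In Nalm6 the reads were 1, 1 and 6 untreated, 6, 15 and 3 with ibrutinib, 6, 5 and 2 with asparaginase and 3, 3 and 4 with the combination. All Nalm6 groups overlap, and 15 of the 24 ibrutinib reads come from 1 library. Counting intervals cover counting error only.

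**Figure D3:**
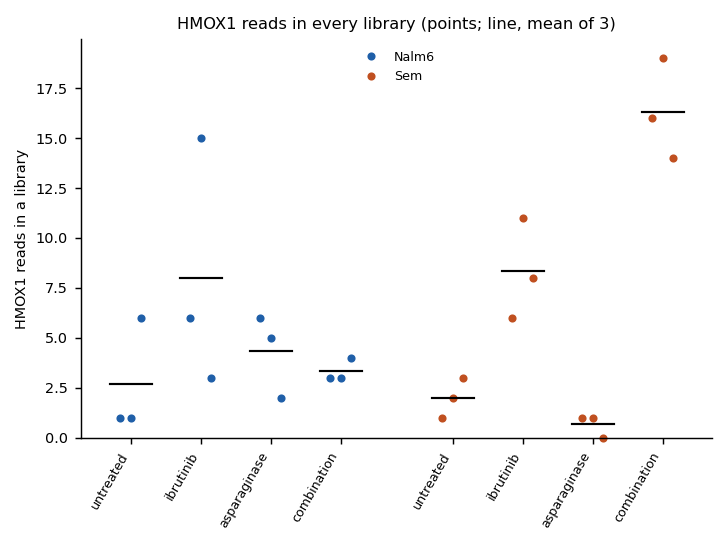
HMOX1 reads (y axis, from 0) in each of the 24 libraries by line and treatment, with the mean of 3 as a line. The Sem combination libraries hold 14 to 19 reads and the Sem untreated ones 1 to 3, and the Nalm6 groups overlap.

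Neither line had a member whose response to the combination departed from the sum of the single-drug changes beyond the limma threshold. In Nalm6, 0 of 7 members passed this interaction test, where 5.58% of genes did. An unadjusted p under 0.05 was held by 5 of the 7 members and by 2687 of the 13237 genes tested. Among the members the largest was NQO1 at 0.48 ± 0.140 (adjusted p = 0.076), followed by GCLM at 0.29 (adjusted p = 0.11), KEAP1 at 0.28 (0.23), TXNRD1 at 0.25 (0.072) and GSR at 0.21 (0.13). The count of members that passed was 1 without untreated 1 (TXNRD1), untreated 2 (NQO1), combination 2 (TXNRD1) or combination 3 (GCLM), and 3 with both lines in 1 fit. In Sem, 0 of 8 passed, where 1.54% of genes did. There 1 of the 8 members (NQO1, -0.27 ± 0.118, adjusted p = 0.28) and 2219 of the 13417 genes tested had an unadjusted p under 0.05. Voom on the reads gave 0 members in both lines. Adding ibrutinib to asparaginase raised 2 of 7 members in Nalm6, where 9.8% of genes rose, and raised 4 and lowered 2 of 8 in Sem, where 38.3% changed. Adding asparaginase to ibrutinib lowered 5 and raised 1 (NFE2L2) of 7 in Nalm6, where 57.2% changed, and raised NQO1 alone of 8 in Sem, where 12.1% changed. The NFE2L2 value in Nalm6 (0.18, adjusted p = 0.042) lost its call without ibrutinib 1, 2 or 3 (0.15 to 0.20) or without combination 1 or 2 (0.12 and 0.19).

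Before treatment the lines already differed in most of these genes. ME1 reached 1 FPKM in no Nalm6 library, so it is left out of the counts between lines. Untreated Sem was higher than untreated Nalm6 in NQO1, TXNRD1 and GCLC and lower in GCLM, KEAP1 and GSR, which makes 6 of 7 where 65.8% of 15116 genes differed. The differences were 1.35 ± 0.094 for NQO1 (adjusted p = 1.2e-10), 0.96 for TXNRD1 (3.6e-13), 0.78 for GCLC (4.8e-09), -0.52 for GCLM (1.6e-07), -0.31 for KEAP1 (0.0019) and -0.22 for GSR (0.00048). NFE2L2 did not differ beyond the threshold, at -0.00 ± 0.084 (adjusted p = 0.97). With 1 line of each kind, a difference between lines cannot be told apart from any other way in which these cultures differed.

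The asparaginase effect differed between the lines in 6 of 7 members, all more positive in Sem, where 33.5% of genes differed and 17.7% were more positive. The largest was NQO1, which was 0.98 ± 0.133 higher as an effect in Sem (adjusted p = 1.3e-05), then GSR at 0.73 (adjusted p = 1.4e-07). The combination effect differed in 7 of 7, where 40.8% of genes did, with 6 more positive in Sem and NFE2L2 more negative. GCLC had the largest such difference, at 0.90 ± 0.098 (adjusted p = 5.5e-07). The ibrutinib effect differed in 2 of 7, GCLM (0.46 ± 0.083, adjusted p = 0.00084) and GCLC (0.43 ± 0.098, adjusted p = 0.0056), where 13.7% of genes differed. For NQO1 the ibrutinib difference was 0.33 ± 0.133 (adjusted p = 0.12), a value that does not show that the lines responded alike. Without the libraries that stood apart the ibrutinib count was 4, with NQO1 (0.46, adjusted p = 0.037) and NFE2L2 (-0.39, 0.023) added.

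**Figure D4:**
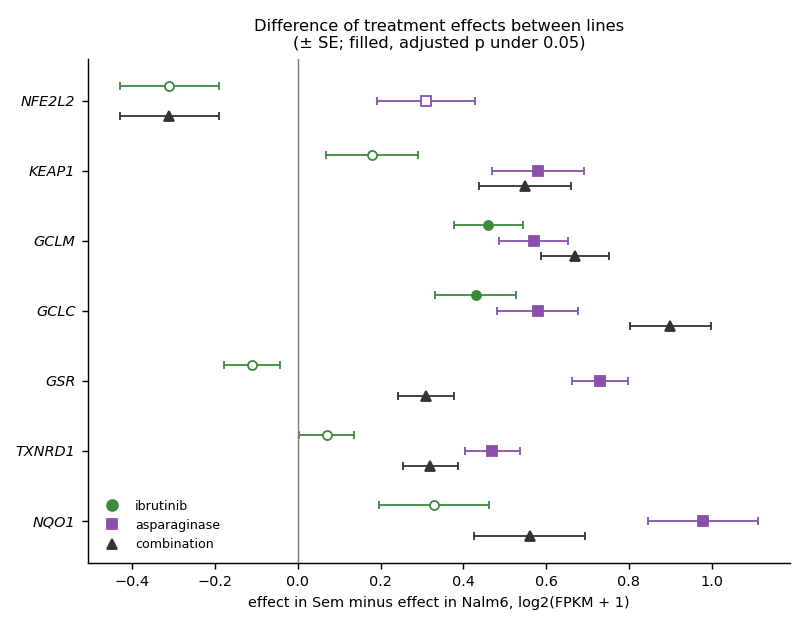
Effect in Sem minus effect in Nalm6 on log2(FPKM + 1) (x axis) ± SE for 7 members and 3 treatments; filled symbols have an adjusted p under 0.05. All called values except NFE2L2 with the combination (-0.31) lie to the right of 0, up to 0.98 for NQO1 with asparaginase.

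A further 95 genes of the pathway, in 7 lists by role, were followed beside the members. Of these, 72 were tested in Nalm6 and 79 in Sem. With ibrutinib, 8 rose and 11 fell in Nalm6, where 4.99% and 7.46% of all genes did (median change -0.05 against -0.01 for all genes), and 17 rose and 28 fell in Sem, where 20.3% and 21.3% did (-0.07 against 0.01). With asparaginase, 15 rose and 37 fell in Nalm6, where 28.2% and 28.1% of all genes did (-0.26 against 0.02), and 11 rose and 33 fell in Sem, where 11.4% and 15.1% did (-0.14 against -0.00). With the combination the counts were 18 and 39 in Nalm6, against 32.4% and 31.3% of all genes, and 27 and 36 in Sem, against 26.6% and 26.3%. The medians were -0.37 and -0.14, each against 0.02 for all genes. More genes fell than rose with asparaginase in both lines and with the combination in Nalm6 under every scaling run. With TPM this balance turned for ibrutinib, to 9 up and 4 down in Nalm6 and 25 and 20 in Sem, and for the combination in Sem, to 29 and 26. It also turned for ibrutinib in Nalm6 with quantile normalization (7 and 2) and with voom (10 and 6).

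**Figure D5:**
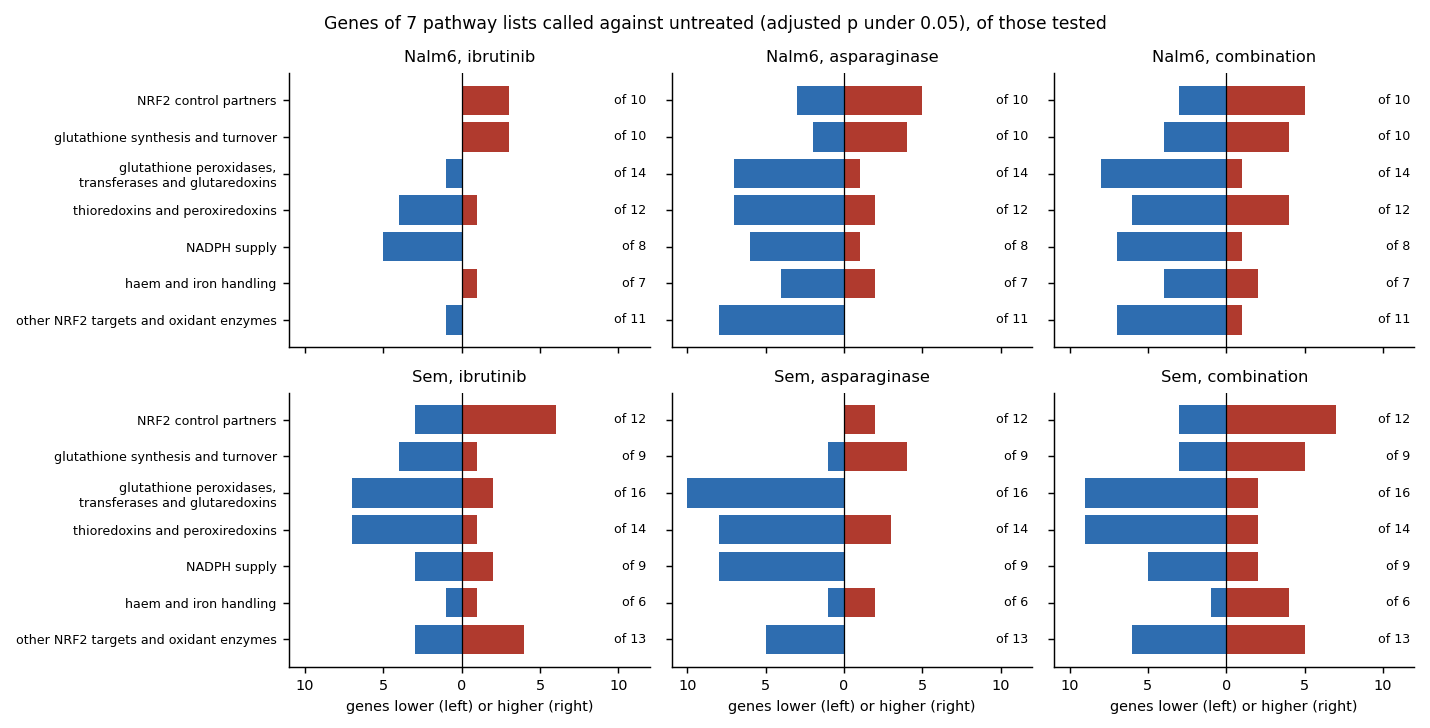
Number of genes of each list that rose (right, red) or fell (left, blue) against untreated with an adjusted p under 0.05, of the number tested given at the right edge, for 2 lines and 3 treatments. In the asparaginase panels the lists of peroxidases and transferases, of thioredoxins and of NADPH supply have more genes to the left.

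The list of NRF2 control partners (other CNC factors, small MAF and BACH proteins and parts of the degradation machinery) had 3 of 10 genes up and 0 down with ibrutinib in Nalm6, where 4.99% of all genes rose and 7.46% fell, and 6 up and 3 down of 12 in Sem, where 20.3% rose and 21.3% fell. BACH2, a B lineage repressor that pairs with small MAF proteins, rose in Nalm6 and was higher with ibrutinib than untreated in Sem. It went from 26.5 ± 2.13 to 36.9 ± 1.89 FPKM with ibrutinib in Nalm6 (SD, n = 3, log2 change 0.46, adjusted p = 0.0013) and to 88.9 ± 2.77 with the combination (1.71, adjusted p = 3.3e-09). In Sem BACH2 was at 0.368 ± 0.0545 FPKM untreated and 1.87 ± 0.196 with ibrutinib, a log2 change of 1.07. It passed the filter there only through its treated libraries, so its p is left out, and the count of 6 above includes it. NFE2L1, the NRF2 relative that controls proteasome genes, rose with asparaginase by 0.86 in Nalm6 (adjusted p = 6.8e-08) and by 0.76 in Sem (4e-06). SQSTM1, whose protein binds KEAP1, rose with the combination by 0.88 in Nalm6 (adjusted p = 6e-08) and by 0.37 in Sem (1.5e-05).

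In the list of glutathione synthesis and turnover, 4 of 10 genes rose and 2 fell with asparaginase in Nalm6, and 4 of 9 rose and 1 fell in Sem, with SLC7A11, SLC3A2 and CHAC1 up in both. Over all genes 28.2% rose and 28.1% fell in Nalm6, near the share of this list, and 11.4% and 15.1% in Sem. SLC7A11, the cystine importer, was at 0.902 ± 0.0156 FPKM in untreated Nalm6 and 3.32 ± 0.181 with asparaginase (log2 change 1.18). In Sem it was at 0.717 ± 0.0683 and 8.06 ± 0.343 (2.40). Its partner chain SLC3A2 went from 39.8 ± 0.907 to 95.3 ± 4.75 FPKM in Nalm6 and from 31.8 ± 1.55 to 61.5 ± 0.871 in Sem. CHAC1, which degrades glutathione, went from 4.24 ± 0.664 to 16.5 ± 1.25 FPKM in Nalm6 and from 1.65 ± 0.311 to 24 ± 1.79 in Sem. SLC7A11, SLC3A2 and CHAC1 are also known targets of the amino acid stress factor ATF4. With ibrutinib alone SLC7A11 was 0.60 above untreated in Nalm6 and 0.55 above it in Sem. SLC3A2 rose with ibrutinib in Nalm6 (0.42, adjusted p = 0.0015) and fell in Sem (-0.48, 5e-06). SLC7A11 was under 1 FPKM in the untreated groups and passed the filter only through treated libraries. Its p-values are therefore left out, and the counts of genes that rose include it.

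In the 2 lists around the use of glutathione and of thioredoxin, more genes fell than rose with asparaginase in both lines. This held with TPM, quantile normalization and voom. The thioredoxin list also holds TXNIP and the sestrins. Of the glutathione peroxidases, transferases and glutaredoxins, 7 of 14 fell and 1 rose with asparaginase in Nalm6, and 10 of 16 fell and 0 rose in Sem, where 28.1% and 15.1% of all genes fell. GSTP1, a conjugating transferase, went from 21 ± 0.836 to 5.47 ± 0.365 FPKM in Nalm6 (-1.77, adjusted p = 1.3e-08) and from 179 ± 11.5 to 131 ± 2.67 in Sem (-0.44, 4.1e-05). GPX1, a hydrogen peroxide reductase, fell with ibrutinib in Sem from 334 ± 21.8 to 220 ± 6.93 FPKM (-0.60, adjusted p = 4.9e-06). Of the thioredoxins and peroxiredoxins, 7 of 12 fell and 2 rose with asparaginase in Nalm6, and 8 of 14 fell and 3 rose in Sem. With ibrutinib in Sem 7 of 14 fell and 1 rose, where 21.3% of all genes fell and 20.3% rose. PRDX1, an abundant peroxiredoxin, went in Sem from 743 ± 41 to 414 ± 11.3 FPKM with ibrutinib (-0.84, adjusted p = 6.1e-07) and to 350 ± 10.7 with the combination. In Nalm6 the thioredoxin gene TXN went from 145 ± 16.3 to 51.1 ± 2.39 FPKM with asparaginase (-1.48, adjusted p = 1.5e-07). Against these, SESN2 rose with asparaginase in both lines, by 2.13 in Nalm6 and 2.26 in Sem, and TXNIP, the thioredoxin inhibitor, by 1.60 and 0.66.

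Of the NADPH supply genes, 6 of 8 fell and 1 rose with asparaginase in Nalm6, and 8 of 9 fell and 0 rose in Sem, where 4 fell with TPM and 5 with quantile normalization. Over all genes 28.1% fell in Nalm6 and 15.1% in Sem, and 8.53% in Sem with TPM. With ibrutinib in Sem 2 of 9 rose and 3 fell, and 2 and 1 with TPM and 4 and 1 with quantile normalization. Over all genes 20.3% rose and 21.3% fell there, 29.2% and 15% with TPM and 19.8% and 17.9% with quantile normalization. With the combination in Sem 2 of 9 rose and 5 fell, and 4 and 3 with TPM and 3 and 2 with quantile normalization. The shares over all genes were 26.6% and 26.3%, 34.3% and 20.2% with TPM and 24.7% and 24.4% with quantile normalization. With asparaginase the pentose phosphate enzyme TKT went from 72.1 ± 8.14 to 38.7 ± 3.54 FPKM in Nalm6 (-0.88, adjusted p = 1.2e-05) and from 69.6 ± 1.55 to 50.8 ± 0.57 in Sem (-0.45, 3e-06). With the combination it was at 35.9 ± 2.67 FPKM in Nalm6 and at 72.6 ± 0.346 in Sem, where that is 0.51 above asparaginase alone (adjusted p = 6.9e-07). Of the haem and iron genes, 4 of 6 rose and 1 fell with the combination in Sem, where 26.6% of all genes rose and 26.3% fell. In Nalm6 2 of 7 rose and 4 fell, where 32.4% and 31.3% did. The ferritin heavy chain FTH1 went from 324 ± 16.9 to 428 ± 3.88 FPKM in Sem (0.40, adjusted p = 1.7e-05) and from 175 ± 15.7 to 319 ± 27 in Nalm6 (0.87, 2.9e-06). Its light chain partner FTL rose in Sem (0.31, adjusted p = 0.0012), and HMOX2, the constitutive haem oxygenase, fell by 0.45 on the log2 scale in Sem and by 0.75 in Nalm6. Among the other NRF2 targets and oxidant enzymes, 4 of 13 rose and 3 fell with ibrutinib in Sem, and 0 rose and 1 fell of 11 in Nalm6. Of all genes 20.3% rose and 21.3% fell in Sem, and 4.99% and 7.46% in Nalm6. PIR, an iron-binding nuclear protein, rose in Sem from 3.13 ± 0.426 to 5.28 ± 0.124 FPKM (0.61, adjusted p = 0.00025), and UGDH, which makes UDP-glucuronate, from 9.91 ± 0.289 to 13.8 ± 0.623 (0.43, 4.5e-05). AKR1A1, an aldehyde reductase, fell with ibrutinib in both lines (-0.60 in Nalm6 and -0.55 in Sem).

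Genes with the most similar pattern were found by Pearson's r over the 24 libraries after centring each line, among 15115 genes. These values describe shared responses to the same 6 treated groups and have no test. For NQO1 they were TMEM209 (r = 0.91), ZYG11B (0.90) and PCYOX1 (0.90). For GCLM the nearest was UGDH (0.95), with 0.94 in Nalm6 and 0.98 in Sem taken alone. GCLC was nearest to LTA4H (0.92), GSR to TMEM70 (0.97), TXNRD1 to EIF5 (0.94), KEAP1 to ACTG1 (0.94), NFE2L2 to CGAS (0.90) and ME1 to HIST1H2BH (0.89). The KEAP1 and TXNRD1 likenesses were closer in Nalm6 (0.96 and 0.97) than in Sem (0.63 and 0.76), and that of NFE2L2 closer in Sem (0.93) than in Nalm6 (0.53). The ME1 likeness rests on Sem (0.89) and could not be computed in Nalm6, where ME1 held 0 to 3 reads a library. None of the 10 genes was among the 3 nearest of another.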

How the data were processed

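RNA of 24 libraries was measured by RNA-seq. Per the labels, libraries were made with a NEBNext Ultra RNA kit. Per the submitters' processing notes, fastp, STAR and featureCounts were used with hg38. The authors' deposited FPKM values are 1 per gene and library, and those of at least 1 had lost the decimal point (299165 values, 21.2%). FPKM times gene length is a whole number of reads (within 1e-04), so each decimal point was restored from whole reads and the most likely power of 10 given the other libraries of the line (a score that uses the groups); 406 restored values had a probability under 0.99, none of them of the genes described. The self-test on simulated data covered the restoration and limma. Library totals came to 15 M to 18.1 M reads.

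Differences of log2(FPKM + 1) were tested with limma 3.58.1 (limma-trend, R 4.3.3) over genes of at least 1 FPKM in at least 3 libraries, with the 12 libraries of a line in 1 fit and all 24 for comparisons between lines, and Benjamini-Hochberg adjustment over all genes. Alternatives were a pseudocount of 0.1, no filter, TPM, quantile normalization, a replicate block, voom on the reads, other sets of libraries, and, added after seeing the data, a GC and length correction and voom on genes with at least 10 reads. Replicate numbers were not used as a block in the main fit, since same-numbered libraries deviated together in only part of the pairs of groups. In Nalm6 asparaginase and combination the deviations of same-numbered libraries correlated at 0.378, 0.108 and 0.183. Across numbers, asparaginase 2 with combination 3 was at 0.115 and asparaginase 3 with combination 2 at 0.108. The 0.378 joins libraries that both stood apart, and untreated 2 correlated with them at 0.239 and 0.31. The check therefore does not show that the numbers pair these libraries, and the labels do not say what a number stands for. The block left the count of members called between these groups at 2. In Sem, untreated and asparaginase libraries of the same number correlated at 0.092, 0.07 and 0.075, and those of different numbers at -0.053 to -0.02. For Sem asparaginase and combination the same-numbered values were -0.023, 0.021 and 0.081. A weak pairing in Sem is therefore not excluded, and the calls that the block changed, all of NFE2L2, are given below.

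The members and lists were chosen with earlier results of these data known. Named were all 10 members, up to 4 called genes with the largest change per list and comparison, and the 3 genes nearest in pattern. A second, shorter gene model named SOD2 was left out.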

Additional observations from a re-analysis of the deposited data

Results flagged for a closer look

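A treatment effect that differed between the lines by the limma test of the difference itself (effect in Sem minus effect in Nalm6, log2 scale, adjusted p under 0.05) was found 15 times among the members other than ME1. These were 2 of 7 members with ibrutinib, 6 of 7 with asparaginase and 7 of 7 with the combination. Of all 15116 genes tested, 13.7%, 33.5% and 40.8% differed in these comparisons. With ibrutinib the differences were 0.46 for GCLM and 0.43 for GCLC. With asparaginase they were 0.98 for NQO1, 0.73 for GSR, 0.58 for KEAP1, 0.58 for GCLC, 0.57 for GCLM and 0.47 for TXNRD1. NQO1 and GCLC had called changes of opposite sign with asparaginase, -0.31 and -0.42 in Nalm6 and 0.67 and 0.16 in Sem. In each pair 1 call was fragile: the NQO1 fall in Nalm6 was lost in 7 of 16 alternatives and the GCLC rise in Sem in 9 of 16. With the combination the differences were 0.90 for GCLC, 0.67 for GCLM, 0.56 for NQO1, 0.55 for KEAP1, 0.32 for TXNRD1, 0.31 for GSR and -0.31 for NFE2L2. GCLM and GCLC had called changes of opposite sign with the combination, -0.32 and -0.41 in Nalm6 and 0.35 and 0.49 in Sem.

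The NQO1 difference with the combination lost its call with a pseudocount of 0.1 (0.39, adjusted p = 0.069), with TPM (0.36, 0.071) and with voom on the reads (0.29, 0.2). The NFE2L2 difference with the combination (adjusted p = 0.046) lost its call without Nalm6 untreated 2 (-0.26) or 3 (-0.32), Nalm6 combination 1 (-0.25) or 2 (-0.32), Sem untreated 1 (-0.30) or 3 (-0.21), or Sem combination 1 (-0.30) or 2 (-0.28).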

How the results depend on the processing

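Of 64 called changes of members (ME1 not counted between lines), 49 kept their call in every alternative run, 15 lost it in at least 1 and 0 changed sign. Among the changes that were not called, GSR in Nalm6 with ibrutinib turned from -0.10 to 0.02 under quantile normalization (adjusted p = 0.85). The number of members called moved by over 1.5 times in 5 comparisons, and the cause was not tested. For ibrutinib in Nalm6 it was 1, and 2 without the libraries that stood apart, with the GC and length correction and with both lines in 1 fit. For the Nalm6 interaction it was 0, and 1 with quantile normalization, 2 without the libraries that stood apart, 2 with the GC and length correction, 3 with both lines in 1 fit and 0 to 1 with 1 library left out. For asparaginase in Sem it was 4, and 1 with no filter, 2 with quantile normalization, 1 without the libraries that stood apart and 1 to 3 with 1 library left out. Asparaginase added to ibrutinib in Sem gave 1, and 2 with no filter and 0 without the libraries that stood apart. For the ibrutinib effect between lines it was 2, and 4 without the libraries that stood apart. The replicate block changed 3 calls of members, all of NFE2L2, which passed in Sem with the combination (-0.19, adjusted p = 0.047) and in the differences between lines with ibrutinib (-0.31, 0.032) and asparaginase (0.31, 0.017); it changed no other call. The low reads of HMOX1, ME1 in Nalm6 and SRXN1 limit what these libraries can show of them.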
